A study of Mus musculus with 12 samples.

Results

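The 40 genes described here encode the glutathione and thioredoxin systems of the cell and the classic targets of the transcription factor NRF2. They were chosen as a list of gene symbols and were looked up by their Ensembl identifiers among the 55414 identifiers of a count table. All 40 were found, and 39 had enough counts to be tested. Grouped by role, they are 10 soluble and 3 microsomal glutathione transferases, 5 glutathione peroxidases, 7 peroxiredoxin and sulfiredoxin genes, 5 genes of the thioredoxin system, 4 of glutathione synthesis and recycling, 4 for NRF2, KEAP1, NQO1 and heme oxygenase, and 2 that supply NADPH.

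The cells were 3T3-L1, a mouse fibroblast-like preadipocyte line that turns into fat cells under hormones. They were labelled as overexpressing either FHL2, a LIM-domain scaffold protein, fused to GFP, or the control GFP construct. The 4 groups, of 3 libraries each, were FHL2 cells at day 2, control cells at day 2, FHL2 cells at day 0 and control cells at day 0. Day 0 cells were post-confluent and not yet induced. Day 2 cells had received 170 nM insulin, 1 µM dexamethasone and 0.5 mM isobutylmethylxanthine with 10% fetal bovine serum, and 10% serum was also in the growth medium of all groups. Polyadenylated RNA was sequenced in stranded libraries. The labels give neither the promoter of the construct nor whether a line was a pool or a clone. They also do not say whether the 3 libraries of a group came from separate cultures, so p-values measure only the spread between these libraries. No group was kept for 2 days without the inducers, so induction, time in culture and any handling difference between days cannot be told apart.

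Glutathione is a tripeptide made by glutamate-cysteine ligase and glutathione synthetase. Glutathione peroxidases use it to reduce peroxides, glutathione transferases couple it to electrophiles, and glutathione reductase restores it with NADPH. Peroxiredoxins reduce peroxides in parallel and are recharged by thioredoxin and the NADPH-dependent thioredoxin reductases. NRF2, encoded by Nfe2l2, is held in the cytoplasm and sent for degradation by KEAP1 until oxidants or electrophiles modify KEAP1, and then binds antioxidant response elements of many of these genes together with small MAF proteins. Fat cell differentiation raises the demand for NADPH, which lipid synthesis and both reducing systems share.

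The start regions of 4 members are printed because these genes carry the antioxidant-type letters and their calls with induction differed. Without an offset for GC content, Srxn1 and Gstp1 were higher at day 2 in both lines, Prdx1 passed the test in FHL2 cells alone, and Gclm was lower in both. With that offset, described below, Prdx1 was higher in both lines and the Gclm fall passed in neither. The Prdx1 change was not shown to differ between the lines (edgeR interaction of line and day, adjusted p = 0.851). Each run holds 250 bases before and 50 after the annotated start, 5′ to 3′ on the gene's strand, from RefSeq for GRCm38.p6. That build is older than the build named for the counts. Capitals mark matches on either strand to TGACNNNGC or to TGAGNNNGC.
Srxn1, chr2:152105274-152105573, plus strand: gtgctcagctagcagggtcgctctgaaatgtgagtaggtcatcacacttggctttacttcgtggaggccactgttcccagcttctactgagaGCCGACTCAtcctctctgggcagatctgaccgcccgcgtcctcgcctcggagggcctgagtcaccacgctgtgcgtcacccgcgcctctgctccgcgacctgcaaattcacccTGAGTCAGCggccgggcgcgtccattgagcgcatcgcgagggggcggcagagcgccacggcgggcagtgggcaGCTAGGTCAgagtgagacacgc
Gstp1, chr19:4037863-4038162, minus strand: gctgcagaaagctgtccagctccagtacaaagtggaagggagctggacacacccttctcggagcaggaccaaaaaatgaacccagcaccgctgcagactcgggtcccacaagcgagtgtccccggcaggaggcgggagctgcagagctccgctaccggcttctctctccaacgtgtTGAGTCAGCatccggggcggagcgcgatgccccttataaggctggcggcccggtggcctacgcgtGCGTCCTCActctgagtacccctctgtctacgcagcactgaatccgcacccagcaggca
Prdx1, chr4:116685349-116685648, plus strand: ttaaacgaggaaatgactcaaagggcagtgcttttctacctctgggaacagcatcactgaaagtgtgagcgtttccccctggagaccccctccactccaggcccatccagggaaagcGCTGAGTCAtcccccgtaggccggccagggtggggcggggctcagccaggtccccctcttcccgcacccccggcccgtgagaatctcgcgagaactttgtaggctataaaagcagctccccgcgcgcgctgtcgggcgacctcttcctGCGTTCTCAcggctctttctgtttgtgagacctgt
Gclm, chr3:122245307-122245606, plus strand: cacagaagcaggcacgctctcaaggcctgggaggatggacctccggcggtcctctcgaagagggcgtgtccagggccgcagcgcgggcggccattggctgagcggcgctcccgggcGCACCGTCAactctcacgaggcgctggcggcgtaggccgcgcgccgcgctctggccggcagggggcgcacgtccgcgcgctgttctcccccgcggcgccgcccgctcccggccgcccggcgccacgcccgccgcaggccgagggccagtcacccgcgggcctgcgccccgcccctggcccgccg

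Windows were at hand for 34 of the 40 members. TGACNNNGC was found on either strand in 9 of the 34 members (26.5%), against 14.0% of 27025 genes with such a window. TGAGNNNGC was found in 7 of the 34 (20.6%), against 19.8% of all genes. At least 1 of the 2 was found in 13 of the 34 (38.2%), against 30.8% of all genes. These letters overlap the AP-1 motif TGACTCA, which was in 5 of the 34 members (14.7%), against 5.95% of all genes. In the windows printed above, a motif overlapping TGACTCA stood at position 206 in Srxn1, at position 177 in Gstp1 and at position 118 in Prdx1, counted from 1 at the 5′ end. The Gclm window had a single match, TGACGGTGC on the minus strand of the window at position 117. A match of letters is a description and was not tested as a binding site.

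Libraries held 10047708 to 21872139 counts. The day 2 libraries had counts for 12689 to 16131 identifiers and the day 0 libraries for 17977 to 18811. Replicates 1 and 2 of the FHL2 cells and replicate 3 of the control cells had the fewest at day 2, and are called the 3 gene-poor day 2 libraries. A fit without them holds a single FHL2 library and 2 control libraries at day 2, and assumes that the lone FHL2 library varies like the other groups. The biological coefficient of variation was 0.463 over day 2 and 0.121 over day 0. Levels are CPM, the counts scaled to a common library size by TMM, given for the 3 libraries of a group in the order of their replicate numbers. Fhl2 itself ranged over 9.92 to 22.6 CPM in FHL2 cells and 13.9 to 21 CPM in control cells at day 2, and over 58.8 to 67.4 CPM in FHL2 cells and 58.9 to 63.6 CPM in control cells at day 0, and the lines overlapped at each day (edgeR adjusted p = 0.914 at day 2 and 1 at day 0). No source used here says whether reads of the construct were counted under Fhl2. The summed level of 6 adipocyte markers was 57.3 to 67.5 CPM in FHL2 cells and 94.6 to 140 CPM in control cells at day 2, and 15.5 to 16.9 CPM in FHL2 cells and 16.3 to 18.2 CPM in control cells at day 0, and all 6 passed the test as higher at day 2 in each line. The summed level of 4 preadipocyte markers was 7083 to 7556 CPM in FHL2 cells and 6790 to 8280 CPM in control cells at day 2. At day 0 it was 7035 to 7433 CPM in FHL2 cells and 6372 to 7350 CPM in control cells. Of these 4, 2 were higher and 0 lower at day 2 in FHL2 cells, and 1 was higher and 0 lower in control cells. Of 5 fibroblast markers, 1 was higher and 2 lower at day 2 in FHL2 cells, and 2 were higher and 2 lower in control cells. In any library the summed markers of macrophages and blood were at 9.35 to 19.5 CPM, those of endothelium and of muscle at most at 5.13 CPM and those of epithelium at most at 1.51 CPM. Bone and cartilage markers summed to 188 to 225 CPM in FHL2 cells and 147 to 250 CPM in control cells at day 2, and to 193 to 211 CPM in FHL2 cells and 170 to 184 CPM in control cells at day 0, and of these 6 markers Sox9 alone had enough counts to be tested. Adipocyte marker shifts and the members' changes moved together between days, and their part in the members' changes was not tested. In bulk RNA, fewer cells of a type and less RNA per cell cannot be told apart.

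Most members were higher at day 2 than at day 0. In FHL2 cells 27 of the 39 tested members rose and 3 fell, where 25.8% of the 14435 genes tested rose and 30.2% fell. In control cells 24 of 39 rose and 3 fell, where 26.3% of all genes rose and 30.8% fell. The median log2 fold change of the members was 0.71 in FHL2 cells and 0.66 in control cells, beside -0.11 and -0.14 for all genes tested. A member is called here at an adjusted p under 0.05 from edgeR's quasi-likelihood test, adjusted by Benjamini-Hochberg over all genes. The rise passed in both lines for 24 members and the fall for 2, Gpx8 and Gclm. Gpx7, Prdx1 and Txn1 passed as higher in FHL2 cells alone, Gstt2 as lower in FHL2 cells alone and Txnrd1 as lower in control cells alone. No member changed in opposite directions, and 8 passed in neither line. The 2 lines were compared with their own day 0 libraries.

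**Figure D1:**
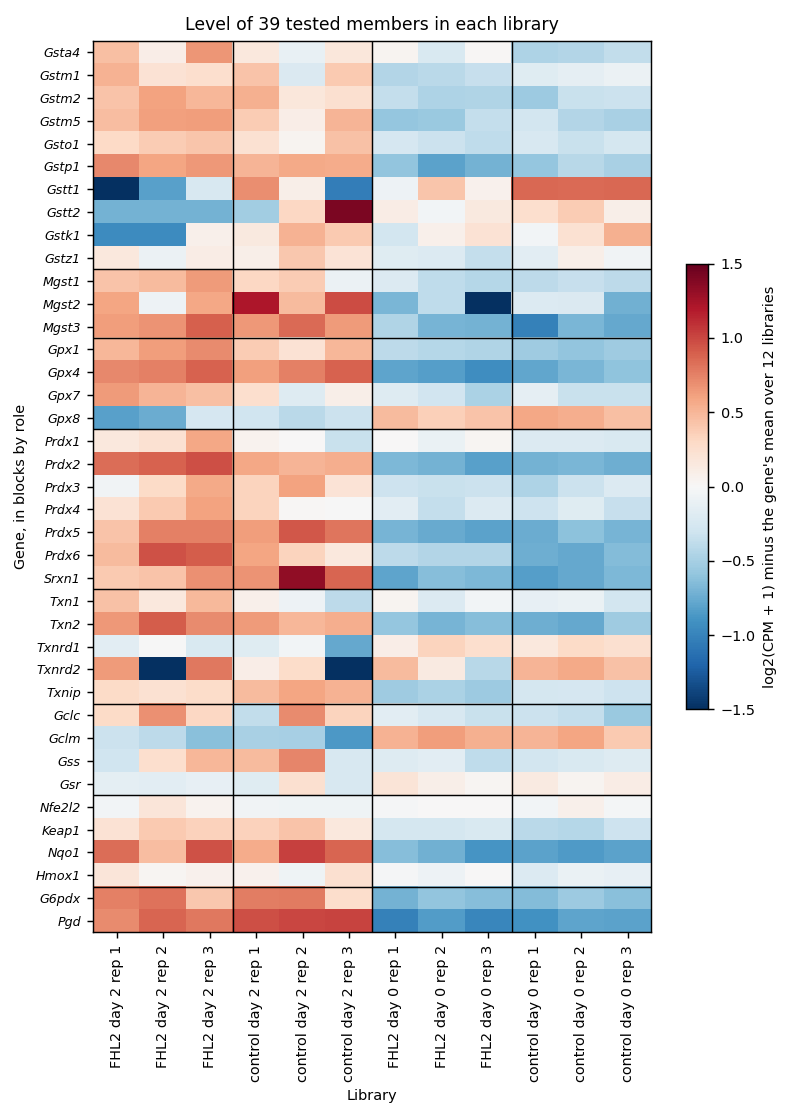
Level of each of the 39 tested members (rows, in blocks by role) in each of the 12 libraries (columns), as log2(CPM + 1) minus the gene's mean over the 12 libraries; red is above and blue below that mean, and colours stop at the ends of the bar. The 6 day 2 libraries on the left are red for most rows, while Gpx8 and Gclm are blue there.

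Across the whole table, genes richer in G and C tended to be higher at day 2. Over 10443 genes averaging 5 CPM or more, Spearman's rho between transcript GC content and log2 fold change was 0.685 in FHL2 cells and 0.701 in control cells, a description across genes that share the same libraries. The fifth of genes with the lowest GC content had a median log2 fold change of -1.56 in FHL2 cells and -1.68 in control cells, and the fifth with the highest had 0.745 in FHL2 cells and 0.78 in control cells. The members were near the middle, with a median GC content of 51%, beside 49.8% for all genes tested. With a smooth offset for GC content in each library, 25 members rose and 4 fell in FHL2 cells, where 21% of all genes rose and 18.3% fell. In control cells 26 rose and 1 fell, where 21.9% of all genes rose and 17.6% fell. Of the calls without the offset, 25 of 30 kept their call and direction in FHL2 cells and 23 of 27 in control cells. Of the 24 members that rose in both lines, 22 did so with this offset and 18 with an offset for GC content and transcript length together. The share of all genes that rose in both lines was not computed. With GC content and length, 24 members rose and 3 fell in FHL2 cells, where 3000 of 14435 genes rose and 2569 fell. In control cells 20 rose and 4 fell, where 3059 genes rose and 2474 fell. The members' median log2 fold change was then 0.51 in FHL2 cells and 0.36 in control cells. Neither of the 2 shared falls passed as a fall with either offset. The cause of the relation with GC content was not tested, and values with the offset are given below where they end or turn a call of a member or move its value by over 1.5 times.

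**Figure D2:**
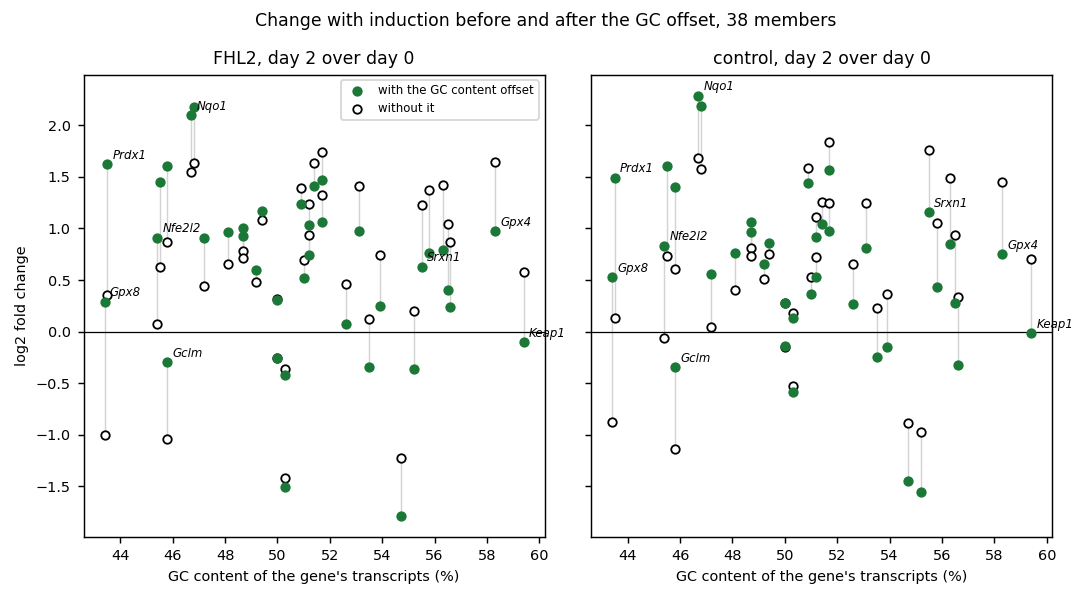
Log2 fold change of day 2 over day 0 against the GC content of each gene's transcripts, in FHL2 cells (left) and control cells (right), for 38 tested members, with open circles without and green circles with the GC content offset and grey lines joining the 2 values of a gene. Gstt2, which had no count in FHL2 cells at day 2, is left out; low-GC genes such as Prdx1, Nfe2l2 and Gpx8 move up and high-GC genes such as Gpx4 and Keap1 move down.

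Among the soluble glutathione transferases, which couple glutathione to electrophiles in the cytosol, 6 of 10 rose with induction in each line. These 6 were the alpha-class Gsta4, the mu-class Gstm1, Gstm2 and Gstm5, the omega-class Gsto1 and the pi-class Gstp1. Gstp1 had 121, 111 and 115 CPM in FHL2 cells and 104, 109 and 108 CPM in control cells at day 2. At day 0 it had 48.3, 41.3 and 44.3 CPM in FHL2 cells and 48.3, 54.3 and 51.6 CPM in control cells. All day 2 libraries were above all day 0 libraries. The log2 fold change was 1.37 ± 0.10 (SE, adjusted p = 1.04e-07) in FHL2 cells and 1.06 ± 0.10 (adjusted p = 9.78e-07) in control cells, and 0.77 and 0.43 with the GC offset. In control cells the rise of Gstp1 no longer passed with GC content and length together (adjusted p = 0.0962).

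Gstm2 had the largest level per kilobase of transcript of the 10 at day 2, with 188 CPM per kb in FHL2 cells and 165 CPM per kb in control cells, followed by Gstm1 with 141 and 130 CPM per kb. Gstm2 rose by a log2 fold change of 0.94 ± 0.11 in FHL2 cells and 0.72 ± 0.11 in control cells, and Gstm5 by 1.08 ± 0.13 in FHL2 cells and 0.75 ± 0.13 in control cells. Gsto1, which also reduces dehydroascorbate, rose by 0.69 ± 0.11 in FHL2 cells and 0.53 ± 0.11 in control cells. Gsta4, which clears the lipid peroxidation product 4-hydroxynonenal, rose by 0.48 ± 0.15 in FHL2 cells and 0.51 ± 0.15 in control cells. The Gsta4 call in FHL2 cells was lost without replicate 3 of day 2 (adjusted p = 0.0534) or replicate 2 of day 0 (0.0681). With GC content and length together, the Gsta4 rise passed in neither line (adjusted p = 0.161 in FHL2 cells and 0.0529 in control cells), and the Gsto1 rise did not pass in control cells (0.0843). The mu-class genes are close in sequence, and the counting may have split their reads, so their separate values are uncertain.

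Gstm1 was the least stable of the 6. It had 235, 191 and 195 CPM in FHL2 cells at day 2, against 120, 123 and 128 CPM at day 0. In control cells it had 220, 140 and 214 CPM at day 2, against 144, 149 and 154 CPM at day 0. The groups did not overlap in FHL2 cells, but replicate 2 of the control cells at day 2 lay below all 3 day 0 libraries. The log2 fold change was 0.74 ± 0.14 (adjusted p = 5.16e-04) in FHL2 cells and 0.36 ± 0.14 (adjusted p = 0.0436) in control cells. The call in control cells was lost when any of 5 libraries was left out: replicate 1 of day 2 (adjusted p = 0.155), replicate 3 of day 2 (0.0843), or replicate 1 (0.125), 2 (0.104) or 3 (0.0775) of day 0. It was also lost with DESeq2 (0.0537), limma-voom (0.0519), RLE scaling (0.0668), only the groups compared (0.0523) and without the 3 gene-poor day 2 libraries (0.0560). With the GC offset Gstm1 passed in neither line, at 0.25 (adjusted p = 0.186) in FHL2 cells and -0.15 (0.444) in control cells.

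The remaining 4 soluble transferases were weakly expressed or changed little. Gstz1, which isomerizes maleylacetoacetate in tyrosine breakdown, had 46.4, 38.9 and 44.6 CPM in FHL2 cells and 44.0, 54.8 and 47.7 CPM in control cells at day 2. Before induction, at day 0, it had 36.2, 35.7 and 32.1 CPM in FHL2 cells and 37.1, 43.9 and 39.8 CPM in control cells. Its day 2 libraries were above its day 0 libraries in each line, but the difference did not pass. The log2 fold change was 0.32 (adjusted p = 0.0643) in FHL2 cells and 0.28 (0.102) in control cells. Gstz1 passed as higher with upper-quartile scaling (0.0230 in FHL2 cells and 0.0330 in control cells). It also did so with a minimum of 1 CPM in 3 libraries (0.0353 and 0.0494). In FHL2 cells it passed without replicate 2 of day 2 (0.0371) and with GC content and length together (0.0346). Gstt1, a theta-class enzyme, had 0.69 to 3.57 CPM in FHL2 cells and 1.62 to 7.74 CPM in control cells at day 2, and 4.1 to 6.15 CPM in FHL2 cells and 8.69 to 8.82 CPM in control cells at day 0. All its day 2 libraries were below the day 0 libraries of their line, without passing the test (adjusted p = 0.0895 in FHL2 cells and 0.201 in control cells). It passed as lower in FHL2 cells with the GC offset (-1.78, adjusted p = 0.0263). Gstk1, the mitochondrial and peroxisomal kappa-class enzyme, had 17 counts in FHL2 cells and 54 counts in control cells over the 3 day 2 libraries.

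The 3 microsomal glutathione transferases, membrane proteins that act on lipid hydroperoxides or leukotrienes, all rose in each line. Mgst3 had 52.7, 54.8 and 63.9 CPM in FHL2 cells and 53.7, 61.8 and 53.1 CPM in control cells at day 2, against 24.5, 20.5 and 20.4 CPM in FHL2 cells and 16.2, 20.7 and 19.4 CPM in control cells at day 0. The groups of the 2 days did not overlap. Its log2 fold change was 1.39 ± 0.15 (adjusted p = 3.22e-06) in FHL2 cells and 1.58 ± 0.15 (1.02e-06) in control cells. Mgst1 rose by 0.87 ± 0.13 in FHL2 cells and 0.60 ± 0.13 in control cells, and by 1.61 and 1.40 with the GC offset. Mgst2 stayed under 10 CPM in every library and rose by 1.63 ± 0.56 (adjusted p = 0.0228) in FHL2 cells and 1.58 ± 0.55 (0.0252) in control cells. Its call in FHL2 cells was lost with only the groups compared (0.0534) and without replicate 3 of day 2 (0.0503), replicate 1 of day 0 (0.0536) or replicate 3 of day 0 (0.0864), and in control cells without replicate 1 of day 2 (0.0747) or replicate 1 (0.0564), 2 (0.0580) or 3 (0.101) of day 0.

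Of the glutathione peroxidases, the selenoproteins Gpx1 and Gpx4 rose in both lines, while the calls of the endoplasmic reticulum enzymes Gpx7 and Gpx8 changed with the GC offset. Gpx4, which reduces phospholipid hydroperoxides and guards against ferroptosis, had 396, 405 and 446 CPM in FHL2 cells and 370, 407 and 444 CPM in control cells at day 2. The day 0 values were 138, 135 and 126 CPM in FHL2 cells and 140, 148 and 158 CPM in control cells. Every day 2 library was above every day 0 library. The log2 fold change was 1.64 ± 0.09 (adjusted p = 7.57e-09) in FHL2 cells and 1.45 ± 0.09 (2.02e-08) in control cells. Gpx4 has one of the highest GC contents among the members (58.3%), and with the GC offset its rise was 0.98 in FHL2 cells and 0.75 in control cells, each still past the threshold.

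Gpx1, the main cytosolic peroxidase of hydrogen peroxide, averaged 406 ± 30.1 CPM in FHL2 cells and 343 ± 33.5 CPM in control cells at day 2, and 197 ± 3.73 CPM in FHL2 cells and 180 ± 4.12 CPM in control cells at day 0 (SD, n = 3 each). It rose by 1.04 ± 0.09 (SE) in FHL2 cells and 0.93 ± 0.09 in control cells, by 0.41 and 0.28 with the GC offset, and passed in neither line with GC content and length together (adjusted p = 0.250 in FHL2 cells and 0.688 in control cells). Gpx3, the plasma peroxidase, was not tested. It had 6 counts in FHL2 cells and 2 counts in control cells at day 2 and none at day 0, so it was at or near the limit of detection at this depth.

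Gpx8 was one of the members that fell in both lines. It had 57.6, 60.5 and 85.6 CPM in FHL2 cells and 82.4, 76.6 and 81.3 CPM in control cells at day 2. The day 0 libraries had 141, 130 and 137 CPM in FHL2 cells and 153, 150 and 139 CPM in control cells. All day 2 libraries were below all day 0 libraries, with log2 fold changes of -1.0 ± 0.13 (adjusted p = 1.70e-05) in FHL2 cells and -0.88 ± 0.13 (5.41e-05) in control cells. Gpx8 has the lowest GC content of the members (43.4%), and the offset turned its direction, to 0.29 (adjusted p = 0.126) in FHL2 cells and 0.53 (0.00956) in control cells. Gpx7 had 47.4, 43.3 and 41.4 CPM in FHL2 cells and 36.1, 26.2 and 31.9 CPM in control cells at day 2, against 26.3, 24.5 and 21.4 CPM in FHL2 cells and 27.4, 23.6 and 23.7 CPM in control cells at day 0. Its rise of 0.87 ± 0.16 (adjusted p = 4.02e-04) in FHL2 cells was lost with the GC offset (0.24, 0.269). In control cells its groups overlapped (0.33 ± 0.16, adjusted p = 0.0978), and that difference passed as higher without replicate 2 of day 2 (0.0295) and as lower with GC content and length together (-0.61, 0.0110).

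**Figure D3:**
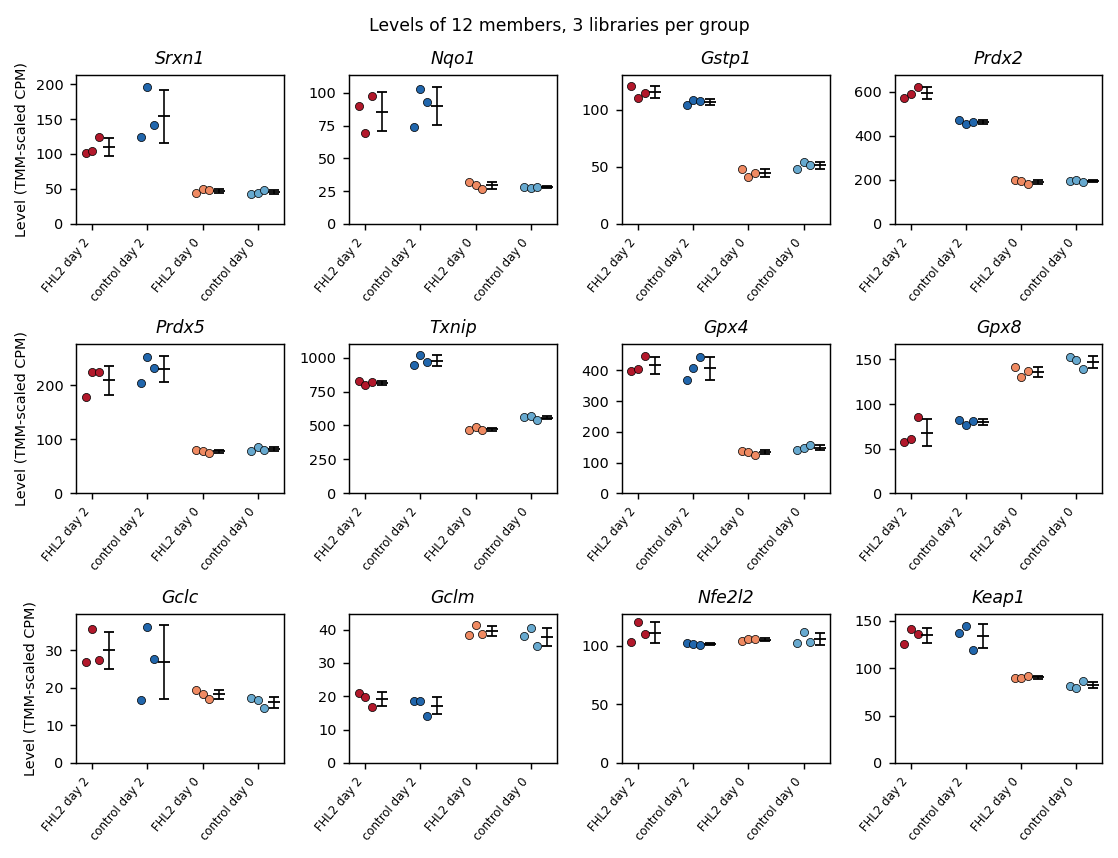
TMM-scaled CPM (vertical axis, from 0) of 12 members in the 3 libraries of each group, coloured points being libraries and the black marks beside them the mean and SD. The day 2 groups, FHL2 and then control, stand on the left of each panel and lie above day 0 for Srxn1, Nqo1, Gstp1, Prdx2, Prdx5, Txnip, Gpx4 and Keap1, and below it for Gpx8 and Gclm, while Nfe2l2 stays near 100 to 120 CPM in all groups.

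The peroxiredoxins, abundant peroxidases that use thioredoxin, and Srxn1, the sulfiredoxin that repairs their overoxidized cysteine, rose in FHL2 cells for 7 of 7 genes and in control cells for 6 of 7. Under the GC offset, all 7 rose in each line. Prdx2, a cytosolic peroxiredoxin, had 570, 590 and 624 CPM in FHL2 cells and 474, 454 and 464 CPM in control cells at day 2. At day 0 it had 199, 194 and 180 CPM in FHL2 cells and 194, 197 and 191 CPM in control cells. The log2 fold change was 1.64 ± 0.08 (adjusted p = 1.10e-09) in FHL2 cells and 1.26 ± 0.07 (1.07e-08) in control cells, so the day 2 level was about 3.11-fold and 2.39-fold the day 0 level. Per kilobase it led the 7 genes at day 2, with 195 CPM per kb in FHL2 cells and 152 CPM per kb in control cells, whereas Prdx4 led at day 0 with 83.7 CPM per kb in FHL2 cells and 81.3 CPM per kb in control cells.

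Prdx1, the other main cytosolic peroxiredoxin and a known NRF2 target, had 272, 285 and 364 CPM in FHL2 cells and 253, 244 and 192 CPM in control cells at day 2. Before induction, at day 0, it had 244, 226 and 248 CPM in FHL2 cells and 211, 211 and 207 CPM in control cells. In FHL2 cells the day 2 libraries were above the day 0 libraries, and in control cells replicate 3 of day 2 was below them. The rise of 0.36 ± 0.12 passed in FHL2 cells (adjusted p = 0.0201) and was lost without replicate 3 of day 2 (0.130) or replicate 2 of day 0 (0.0861). The difference of 0.13 ± 0.12 in control cells did not pass (0.375), and did so without replicate 3 of day 2 (0.0426) and without the 3 gene-poor day 2 libraries (0.00555). Its transcripts have a GC content of 43.5%, and with the GC offset it rose by 1.62 in FHL2 cells and 1.49 in control cells. The ratio of Prdx2 to Prdx1 per kilobase was 1.71 to 2.09 in FHL2 cells and 1.86 to 2.41 in control cells at day 2, and 0.725 to 0.859 in FHL2 cells and 0.916 to 0.931 in control cells at day 0. This ratio is without the GC offset. With the offset Prdx2 rose by 1.42 in FHL2 cells and 1.04 in control cells, less than Prdx1 in each line.

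Prdx5, found in mitochondria, peroxisomes and cytosol, rose by 1.42 ± 0.11 in FHL2 cells and 1.49 ± 0.11 in control cells, and by 0.79 and 0.85 with the GC offset. The mitochondrial Prdx3 rose by 0.63 ± 0.16 in FHL2 cells and 0.73 ± 0.16 in control cells, and by 1.45 and 1.61 with the offset. Prdx4 of the secretory pathway rose by 0.65 ± 0.12 in FHL2 cells and 0.41 ± 0.12 in control cells, where the call was lost without replicate 1 of day 2 (adjusted p = 0.0519) and the rise was 0.76 with the offset. Prdx6, which uses glutathione in place of thioredoxin, rose by 1.24 ± 0.14 in FHL2 cells and 1.11 ± 0.14 in control cells.

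Srxn1 had 101, 104 and 125 CPM in FHL2 cells and 124, 196 and 142 CPM in control cells at day 2, against 44.1, 49.2 and 48.0 CPM in FHL2 cells and 43.1, 44.8 and 48.0 CPM in control cells at day 0. The days did not overlap in either line, and replicate 2 of the control cells at day 2 was the highest library. Srxn1 rose by 1.22 ± 0.15 (adjusted p = 1.00e-05) in FHL2 cells and 1.76 ± 0.15 (3.71e-07) in control cells. With the GC offset the rise was 0.63 in FHL2 cells and 1.16 in control cells. Relative to Prdx1 per kilobase, Srxn1 stood at 0.369 to 0.403 in FHL2 cells and 0.528 to 0.865 in control cells at day 2, and at 0.195 to 0.235 in FHL2 cells and 0.221 to 0.250 in control cells at day 0. This ratio is without the GC offset. With the offset Prdx1 rose by 1.62 in FHL2 cells and 1.49 in control cells, more than Srxn1 in each line.

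**Figure D4:**
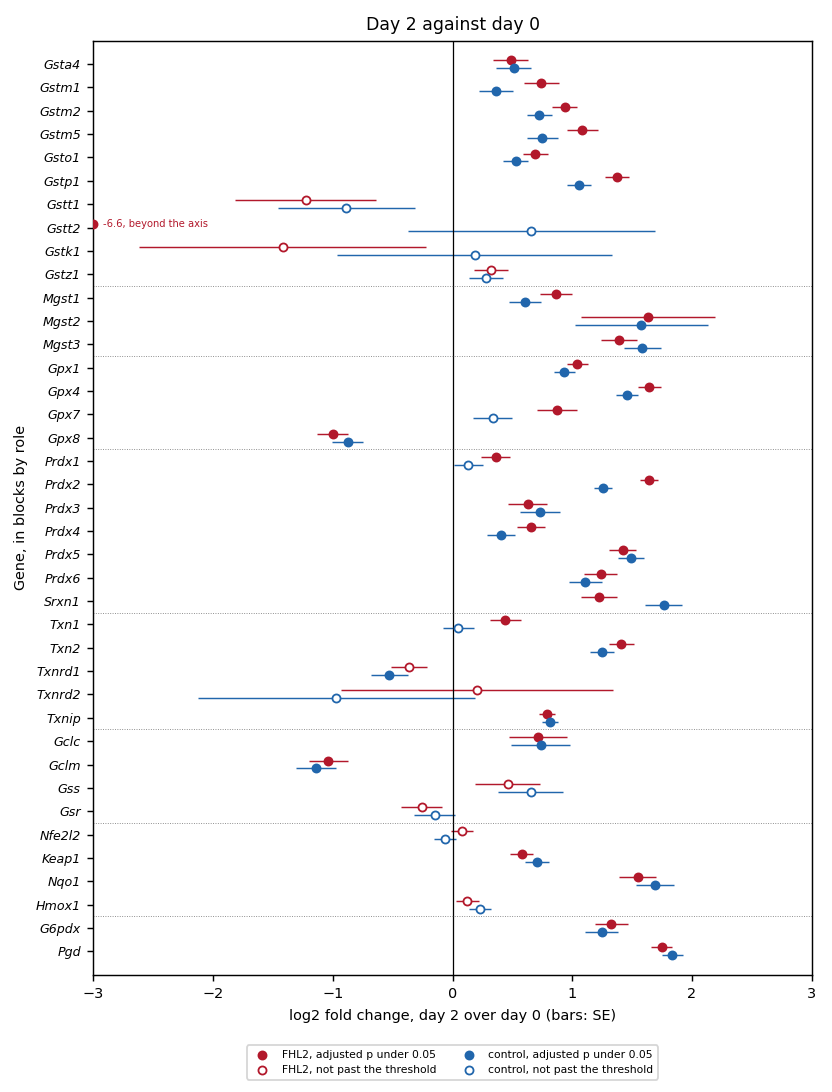
Log2 fold change of day 2 over day 0 (horizontal axis, bars are SE) for the 39 tested members in blocks by role, in FHL2 cells (red) and control cells (blue); filled points have an adjusted p under 0.05. In FHL2 cells 27 filled points lie right of 0 and 3 left, in control cells 24 and 3, and the Gstt2 value in FHL2 cells lies beyond the axis because no count was found at day 2.

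Of the 5 genes of the thioredoxin system, 3 rose in FHL2 cells, and 2 rose and 1 fell in control cells. Txn2, the mitochondrial thioredoxin, had 214, 257 and 223 CPM in FHL2 cells and 212, 192 and 199 CPM in control cells at day 2. The day 0 values were 90.6, 83.4 and 87.2 CPM in FHL2 cells and 81.5, 79.3 and 93.6 CPM in control cells. All day 2 libraries were above all day 0 libraries, with rises of 1.41 ± 0.10 (adjusted p = 6.71e-08) in FHL2 cells and 1.25 ± 0.10 (1.82e-07) in control cells, or 0.97 and 0.81 with the GC offset. Txn1, the cytosolic thioredoxin, had 182, 149 and 188 CPM in FHL2 cells and 141, 126 and 101 CPM in control cells at day 2, against 137, 115 and 129 CPM in FHL2 cells and 122, 124 and 110 CPM in control cells at day 0. It rose in FHL2 cells by 0.44 ± 0.13 (adjusted p = 0.00958), a call lost without replicate 2 of day 0 (0.0558), and in control cells its groups overlapped (0.05 ± 0.13, 0.788). Under the GC offset, Txn1 passed in both lines, at 0.91 in FHL2 cells and 0.56 in control cells.

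Txnip, which binds and inhibits thioredoxin and also lowers glucose uptake, was the most abundant of the 5 genes per kilobase in every group. It had 827, 795 and 821 CPM in FHL2 cells and 943, 1020 and 969 CPM in control cells at day 2, against 466, 486 and 465 CPM in FHL2 cells and 561, 567 and 544 CPM in control cells at day 0. The 4 groups did not overlap. It rose by 0.79 ± 0.07 (adjusted p = 2.70e-07) in FHL2 cells and 0.81 ± 0.07 (1.88e-07) in control cells. The ratio of Txnip to Txn1 per kilobase was 1.47 to 1.79 in FHL2 cells and 2.26 to 3.24 in control cells at day 2, and 1.14 to 1.42 in FHL2 cells and 1.53 to 1.66 in control cells at day 0. This ratio is without the GC offset. With the offset Txnip rose by 1.01 in FHL2 cells and 1.06 in control cells, and Txn1 by 0.91 and 0.56.

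The cytosolic thioredoxin reductase Txnrd1, a selenoprotein and NRF2 target, was lower at day 2. It had 96.3, 107 and 91.3 CPM in FHL2 cells and 94.7, 104 and 62.5 CPM in control cells at day 2, against 115, 136 and 128 CPM in FHL2 cells and 120, 132 and 127 CPM in control cells at day 0. All day 2 libraries were below the day 0 libraries. The fall of 0.53 on the log2 scale passed in control cells (SE 0.15, adjusted p = 0.00842) and was lost without replicate 3 of day 2, the lowest library (-0.28, 0.0580). In FHL2 cells the difference of -0.36 ± 0.15 did not pass (0.0534), and passed with DESeq2 (0.0290), limma-voom (0.0223) and the GC offset (0.0277). Txnrd2, the mitochondrial reductase, stayed under 5 CPM, with no count in replicate 2 of the FHL2 cells and replicate 3 of the control cells at day 2, and passed in neither line.

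The 2 subunits of glutamate-cysteine ligase, the rate-limiting enzyme of glutathione synthesis, changed in opposite directions. Gclc, the catalytic subunit, had 27.0, 35.8 and 27.4 CPM in FHL2 cells and 16.7, 36.4 and 27.8 CPM in control cells at day 2. The day 0 libraries had 19.5, 18.4 and 17.1 CPM in FHL2 cells and 17.3, 16.8 and 14.5 CPM in control cells. The days did not overlap in FHL2 cells, while replicate 1 of the control cells at day 2 lay within the day 0 range. Gclc rose by 0.71 ± 0.24 (adjusted p = 0.0224) in FHL2 cells and 0.73 ± 0.25 (0.0193) in control cells. The call was lost in FHL2 cells without the 3 gene-poor day 2 libraries (0.0926), which leaves a single day 2 library, and without replicate 2 of day 2 (0.0750) or replicate 2 (0.0625) or 3 (0.0782) of day 0, and in control cells without replicate 2 of day 2 (0.101) or replicate 3 of day 0 (0.0745).

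Gclm, the modifier subunit that makes the ligase more efficient, had 21, 19.9 and 16.8 CPM in FHL2 cells and 18.6, 18.5 and 14.2 CPM in control cells at day 2. At day 0 it had 38.5, 41.3 and 38.8 CPM in FHL2 cells and 38, 40.4 and 35.0 CPM in control cells. All day 2 libraries were below all day 0 libraries, and Gclm changed by -1.04 ± 0.16 (adjusted p = 9.24e-05) in FHL2 cells and -1.14 ± 0.17 (4.16e-05) in control cells. With the GC offset the difference was -0.30 (0.147) in FHL2 cells and -0.34 (0.0974) in control cells, neither past the threshold. The ratio of Gclc to Gclm per kilobase was 2.15, 3.00 and 2.72 in FHL2 cells and 1.5, 3.28 and 3.28 in control cells at day 2. At day 0 the ratio was 0.847, 0.744 and 0.738 in FHL2 cells and 0.759, 0.694 and 0.695 in control cells, so the days did not overlap. The GC contents of Gclc and Gclm were 48.7% and 45.8%, and this ratio is without the GC offset. With the offset Gclc rose by 0.93 in FHL2 cells and 0.97 in control cells, beside -0.30 and -0.34 for Gclm.

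In the test used for the calls, the enzymes that complete and recycle glutathione did not pass in either line. Gss, glutathione synthetase, had 13.0, 19.5 and 23.3 CPM in FHL2 cells and 22.9, 27.6 and 13.5 CPM in control cells at day 2, against 12.2 to 14.4 CPM in FHL2 cells and 13.2 to 14.0 CPM in control cells at day 0. One library of each day 2 group lay within the day 0 range, and the difference was 0.46 ± 0.27 (adjusted p = 0.167) in FHL2 cells and 0.65 ± 0.27 (0.0536) in control cells. In control cells Gss passed as higher with DESeq2 (0.0437), limma-voom (0.0395), upper-quartile scaling (0.0263) and a minimum of 1 CPM in 3 libraries (0.0347). It also passed there with only the groups compared (0.0456) and without replicate 3 of day 2 (0.00390). In FHL2 cells Gss passed without replicate 1 of day 2 (0.0475). With the GC offset the Gss difference was 0.07 (0.860) in FHL2 cells and 0.27 (0.446) in control cells. Without the 3 gene-poor day 2 libraries it was 0.80 in FHL2 cells, where a single day 2 library is left, and 0.94 in control cells. Gsr, glutathione reductase, had 21.4 to 21.9 CPM in FHL2 cells and 20 to 28.4 CPM in control cells at day 2, and 24.5 to 27.4 CPM in FHL2 cells and 24.7 to 26.3 CPM in control cells at day 0. Its log2 difference was -0.26 ± 0.17 (0.222) in FHL2 cells and -0.15 ± 0.17 (0.487) in control cells.

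Among the regulators and classic targets, Nqo1 rose and Nfe2l2 did not pass. Nqo1, a quinone reductase widely used as a readout of NRF2, had 90.2, 69.4 and 97.9 CPM in FHL2 cells and 74.3, 103 and 92.8 CPM in control cells at day 2. Before induction, at day 0, it had 31.7, 29.9 and 26.6 CPM in FHL2 cells and 28.3, 27.3 and 28.3 CPM in control cells. Every day 2 library was at least 69.4 CPM and every day 0 library at most 31.7 CPM. It rose by 1.54 ± 0.16 (adjusted p = 1.40e-06) in FHL2 cells and 1.69 ± 0.16 (6.45e-07) in control cells, and by 2.10 and 2.29 with the GC offset.

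Nfe2l2 had 103, 120 and 110 CPM in FHL2 cells and 102, 101 and 101 CPM in control cells at day 2, against 104, 106 and 106 CPM in FHL2 cells and 102, 111 and 103 CPM in control cells at day 0. The difference was 0.08 ± 0.09 (adjusted p = 0.504) in FHL2 cells and -0.06 ± 0.09 (0.592) in control cells. Its GC content is low (45.4%), and with the GC offset it passed as higher, by 0.91 in FHL2 cells and 0.83 in control cells. Keap1 averaged 135 ± 8.35 CPM in FHL2 cells and 134 ± 12.9 CPM in control cells at day 2, and 90.2 ± 1.22 CPM in FHL2 cells and 82.1 ± 3.54 CPM in control cells at day 0 (SD, n = 3 each). It rose by 0.58 ± 0.10 (SE) in FHL2 cells and 0.71 ± 0.10 in control cells, and this ended with the offset, at -0.10 (0.476) and -0.01 (0.926), Keap1 having the highest GC content of the members (59.4%). Hmox1, heme oxygenase 1, had 147 to 164 CPM in FHL2 cells and 138 to 171 CPM in control cells at day 2, against 137 to 145 CPM in FHL2 cells and 125 to 134 CPM in control cells at day 0. The days did not overlap in either line, yet the differences of 0.12 ± 0.10 (0.288) in FHL2 cells and 0.23 ± 0.10 (0.0540) in control cells did not pass. In FHL2 cells Hmox1 passed as lower with the offset (-0.34, 0.00955). In control cells it passed as higher with upper-quartile scaling (0.0163), a minimum of 1 CPM in 3 libraries (0.0212) and only the groups compared (0.0411). It also did so there without replicate 2 of day 2 (0.0148), and passed as lower with GC content and length together (-0.40, 0.00546).

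The 2 NADPH-producing dehydrogenases of the pentose phosphate pathway rose in each line. Pgd, 6-phosphogluconate dehydrogenase, had 308, 346 and 326 CPM in FHL2 cells and 369, 377 and 381 CPM in control cells at day 2, against 92.6, 105 and 94.7 CPM in FHL2 cells and 99.9, 108 and 107 CPM in control cells at day 0. All day 2 libraries were far above all day 0 libraries. Without an offset Pgd had the largest rise of the 39 members, 1.75 ± 0.09 (adjusted p = 1.97e-09) in FHL2 cells and 1.84 ± 0.09 (1.03e-09) in control cells, and 1.47 and 1.57 with the GC offset. G6pdx, glucose-6-phosphate dehydrogenase and the entry step of the pathway, had 203, 212 and 159 CPM in FHL2 cells and 205, 208 and 145 CPM in control cells at day 2, against 72.9 to 79.1 CPM in FHL2 cells and 76.4 to 81.8 CPM in control cells at day 0. It rose by 1.33 ± 0.14 in FHL2 cells and 1.24 ± 0.14 in control cells.

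The comparison of FHL2 with control cells asks whether these genes differed between the lines at either day. No further line per construct is labelled, so the construct and other differences between the lines cannot be told apart. At day 0 no member passed edgeR's test, where 0.0485% of all genes tested did. An unadjusted p under 0.05 was found for 3 of 39 members, beside 600 of the 14435 genes tested. DESeq2 called 1 member, Txnip, lower (log2 fold change -0.25, adjusted p = 0.00182), and edgeR gave Txnip -0.24 ± 0.07 (0.415). The libraries of the lines did not overlap for 12 members at day 0. Keap1, Hmox1, Prdx6, Prdx1, Gsta4 and Gpx1 were higher in all FHL2 libraries, 6 of 39 where 10.5% of all genes were. Gstt1, Gstz1, Txnip, Gstm1, Gstp1 and Gpx4 were lower in all FHL2 libraries, 6 of 39 where 11.1% of all genes were.

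At day 2, 1 member was called higher and 1 lower in FHL2 cells, where 0.72% of all genes were called higher and 1.35% lower. The call was higher for Prdx2, whose 3 FHL2 libraries (570 to 624 CPM) all lay above the control libraries (454 to 474 CPM). Its log2 fold change was 0.36 ± 0.07 (adjusted p = 0.0240), a 1.28-fold level. At day 0 the groups overlapped (-0.02 ± 0.07, adjusted p = 1). The day 2 call was lost with only the groups compared (0.258) and without FHL2 replicate 2 (0.0815) or 3 (0.0625) or control replicate 1 (0.0525), 2 (0.0740) or 3 (0.0796) of that day. Prdx2 overlaps exons of Junb and Rnaseh2a on the opposite strand, and no source used here gives the strand setting of the counting.

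The call was lower for Gstt2, a theta-class transferase of low level. It had no count in any FHL2 library at day 2, against 0.14, 1.03 and 3.35 CPM (47 counts in all) in control cells. The day 0 values were 0.76, 0.59 and 0.81 CPM in FHL2 cells and 0.95, 1.13 and 0.74 CPM in control cells. A floor of 3 counts over the group covers counting error only. By that floor, the FHL2 level at day 2 was at least 22.6-fold below control cells at day 2 (edgeR adjusted p = 0.0405). It was at least 10.8-fold below FHL2 cells at day 0 (0.00499). Libraries can differ by more than counting error. In FHL2 cells at day 2, Txnrd2 had 4.23 and 4.84 CPM in replicates 1 and 3 and no count in replicate 2. The fold bounds do not cover such a spread. The first of these bounds rests on replicate 3 of the control cells, and without that library it is at least 8.78-fold. The call between lines was lost with limma-voom (0.0971) and the replicate block (0.0821), and without the 3 gene-poor day 2 libraries. It was also lost without FHL2 replicate 1 (0.0566), 2 (0.0843) or 3 (0.0702), and without control replicate 2 (0.0568) or 3 (0.0700) of day 2. With only the groups compared, 12819 genes reached the test and Gstt2 was not among them. It entered the main fit through libraries outside the FHL2 cells at day 2.

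Other members differed between the lines at day 2 without passing the test. Txnip was lower in all FHL2 libraries at both days (at day 2 -0.26 ± 0.07, adjusted p = 0.0569). At day 2 it passed with DESeq2 (8.75e-05), limma-voom (0.0293), the GC offset (0.0289) and a minimum of 1 CPM in 3 libraries (0.0424). Txn1 was higher in all FHL2 libraries (0.49 ± 0.13, 0.0675) and Prdx1 likewise (0.42 ± 0.12, 0.0911), and DESeq2 called both (0.00941 for Txn1 and 0.0139 for Prdx1). Srxn1 had a difference of -0.48 ± 0.15 (0.111), with 1 FHL2 library above the lowest control library, and DESeq2 called it (0.0291). Altogether DESeq2 called 6 members at day 2, where it called 6.91% of all genes tested. In edgeR 13 of 39 members had an unadjusted p under 0.05, beside 2611 of the 14435 genes tested.

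Libraries did not overlap for Prdx2, Txn2, Mgst1, Nfe2l2, Txn1, Gpx7, Prdx1 and Gstp1, higher in FHL2 cells at day 2, which is 8 of 39 where 7.28% of all genes were. They did not overlap for Pgd, Gstk1, Gstt2 and Txnip, lower in FHL2 cells, which is 4 of 39 where 7.41% of all genes were. Leaving out replicate 3 of the FHL2 cells, Gpx8 (-0.45, adjusted p = 0.0373) and Gstk1 (0.0304, with no count left in FHL2 cells) passed as lower, and leaving out replicate 1 of the FHL2 cells, Prdx6 passed as higher (0.56, 0.0482). Without the 3 gene-poor day 2 libraries, Gsta4 (0.61, 0.0270) and Gpx1 (0.38, 0.0452) passed as higher, from a single FHL2 library against 2 control libraries. The summed adipocyte markers given above did not overlap between the lines at day 2, where 0 of the 6 passed edgeR's test (2 at an unadjusted p under 0.05), 1 passed with DESeq2 and 2 with limma-voom, and their part in these differences was not tested.

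**Figure D5:**
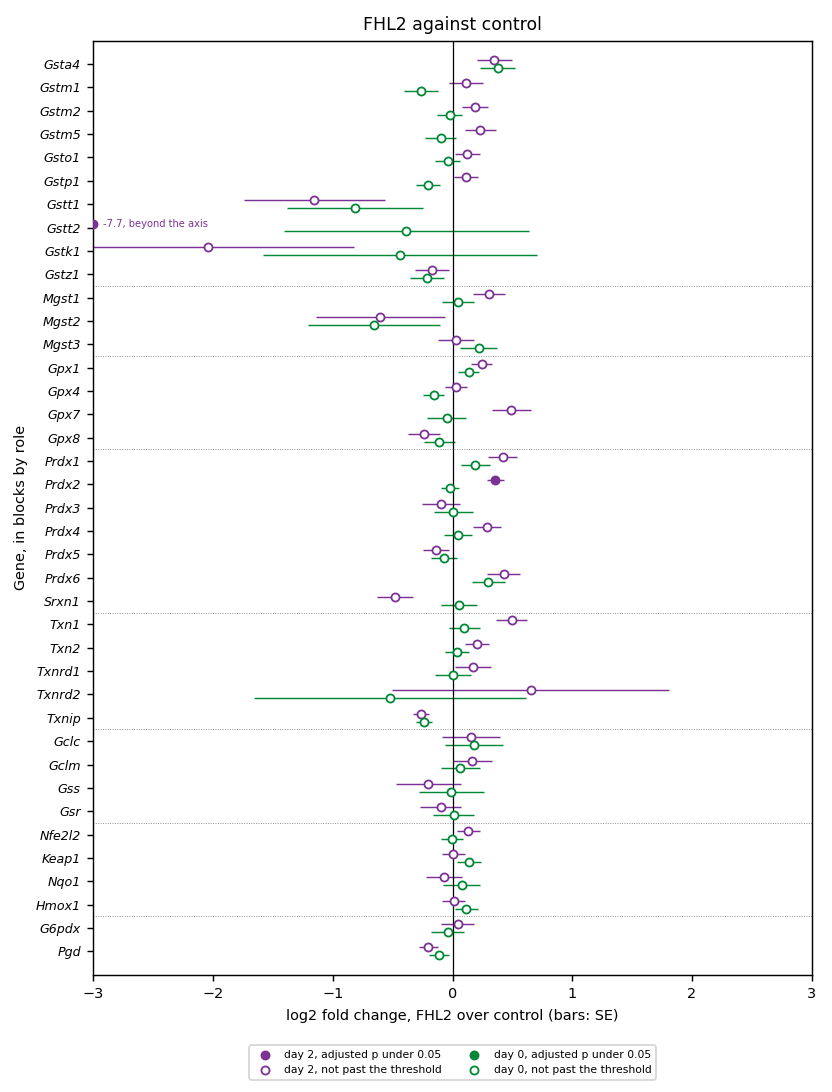
Log2 fold change of FHL2 over control (horizontal axis, bars are SE) for the 39 tested members at day 2 (purple) and day 0 (green), with filled points for an adjusted p under 0.05. The filled points are Prdx2 on the right and Gstt2, beyond the left edge of the axis, both at day 2; all day 0 points are open.

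Whether the change with induction differed between the lines was tested as the interaction, the FHL2 minus control difference at day 2 less that at day 0. No member passed in edgeR, where 0.00693% of all genes did. An unadjusted p under 0.05 was found for 6 of 39 members, beside 996 of the 14435 genes tested. DESeq2 called 1, Prdx2 (0.38, adjusted p = 0.0215), for which edgeR gave 0.38 ± 0.10 (0.436). Gstt2, without a count in FHL2 cells at day 2, had an adjusted p of 0.459. The values for the other members with a day call in a single line were 0.54 ± 0.23 (0.685) for Gpx7, 0.40 ± 0.18 (0.720) for Txn1, 0.23 ± 0.17 (0.851) for Prdx1 and 0.16 ± 0.21 (0.926) for Txnrd1. Srxn1 had an interaction of -0.54 ± 0.21 (0.644) and Gstp1 one of 0.32 ± 0.14 (0.719). A call in FHL2 cells alone was thus not shown to differ from control cells for these members.

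Neighbouring pathways were described by further lists. The shares of all genes to set beside these and the later lists were 25.8% higher and 30.2% lower at day 2 in FHL2 cells. In control cells they were 26.3% higher and 30.8% lower. With the GC offset they were 21% higher and 18.3% lower in FHL2 cells, and 21.9% higher and 17.6% lower in control cells. Of 20 other NRF2 targets, 12 rose and 2 fell with induction in FHL2 cells, and 12 rose and 3 fell in control cells. Under the GC offset, these were 8 and 1 in FHL2 cells, and 10 and 1 in control cells. Fth1, the heavy chain of the iron store ferritin, rose by 2.68 ± 0.09 in FHL2 cells and 2.69 ± 0.09 in control cells. Aldh3a1, an aldehyde dehydrogenase, rose by 3.53 ± 0.29 in FHL2 cells and 3.58 ± 0.29 in control cells, and Cbr3, a carbonyl reductase, by 1.53 ± 0.25 in FHL2 cells and 2.2 ± 0.26 in control cells, or 0.91 and 1.56 with the offset.

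Of 14 genes of the glutathione cycle and glyoxalase system, 6 rose and 3 fell in each line, and with the GC offset 5 rose and 2 fell in FHL2 cells, and 4 rose and 1 fell in control cells. Dpep1, a dipeptidase that splits cysteinylglycine, rose by 3.59 ± 0.28 in FHL2 cells and 4.15 ± 0.28 in control cells, and Anpep, an aminopeptidase, by 2.22 ± 0.13 in FHL2 cells and 2.15 ± 0.13 in control cells. Slc7a11, the cystine importer that feeds glutathione synthesis and an NRF2 target, changed by -3.27 ± 0.43 in FHL2 cells and -2.34 ± 0.41 in control cells. With the GC offset its value was -1.70 (adjusted p = 0.00333) in FHL2 cells and -0.61 (0.224) in control cells, where the call ended.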

How the data were processed

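The authors deposited raw counts per Ensembl gene identifier in a single table, 1 column per library, for 12 libraries in 4 groups of 3 taken from the labels. Per the submitters' processing notes, the build was GRCm39 and the tools included HTSeq 0.11.0, HISAT2 2.2.1, limma, R 4.1.0, Trimmomatic 0.39 and FastQC 0.11.9. Their settings, the annotation and the strand option are not given in the sources used. Reads carry no molecular tags, so floors cover counting error only.

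Genes kept by filterByExpr (14435) were scaled by TMM and fitted with edgeR 4.0.16 in R 4.3.3, 1 mean per group over all 12 libraries. Tests were quasi-likelihood, 2-sided, adjusted by Benjamini-Hochberg over all genes. The steps were run on data simulated with a single spread for all libraries. The real spread differed between days (biological coefficient of variation 0.463 at day 2 and 0.121 at day 0), so the simulation does not test how that affects the calls. Alternatives were DESeq2 1.42.0, limma-voom (limma 3.58.1), scaling by upper quartile or RLE, a minimum of 1 CPM in 3 libraries or no filter, a replicate block, smooth offsets (lowess span 0.3) for GC content and length from GENCODE M21 (previous build, 99.8% of tested genes matched), only the groups compared, and leaving libraries out. Replicates differed by more than sampling noise. Levels between genes were compared per kilobase of annotated exons.

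All members are accounted for; from each other list up to 3 called genes per comparison with the largest change, averaging 5 CPM or more, were eligible to be named, and not all are printed. Members, lists, tests and alternatives were chosen with earlier results of these data known. Exons of 10 members overlap another gene, 1 on the same strand (Gclm). Pseudogenes and close paralogs may share reads. No coordinates of the counting build are given.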

Additional observations from a re-analysis of the deposited data

How the results depend on the processing

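The number of members called for day 2 against day 0 was 30 in FHL2 cells and 27 in control cells. It stayed within 1.5 times of this under every alternative run, at 27 to 33 in FHL2 cells and 24 to 31 in control cells. Leaving out 1 library gave 26 to 31 and 24 to 28, where 47.4% to 54.2% and 47.7% to 54.8% of all genes were called. The share of all genes called in FHL2 cells was 34.2% with no filter (24091 genes tested) and 62.8% with limma-voom. In control cells it was 34.5% and 61.1%. With the GC content offset it was 39.3% in FHL2 cells and 39.4% in control cells. An arm left with a single library is assumed to vary like the other groups. The members called for FHL2 against control at day 2 were 2, where 0.72% of all genes were called higher and 1.35% lower. They were 5 with no filter on low counts (3.51% of all genes), 6 with DESeq2 (6.91%) and 4 with the GC content offset (2.71%). With only the groups compared they were 0 (0.304%), and with 1 library left out 0 to 2. At day 0 DESeq2 called 1 member (0.644% of all genes) and edgeR 0, and for the interaction DESeq2 called 1 (0.506%) and edgeR 0.

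The replicate block gave 1 member called at day 2 between the lines, alone (1.45% of all genes) or with the GC content offset (1.83%). For day 2 against day 0 it gave 31 in FHL2 cells (54.4% of all genes) and 27 in control cells (55.5%). The labels do not say that equal numbers pair the libraries. Correlations of same-numbered libraries ran from -0.157 to 0.27, with 5 of 18 over 0.1. Between the lines at day 0 they were 0.266 for number 1, -0.157 for number 2 and 0.27 for number 3. The best match, picked among the 3 libraries of another group, had the same number in 20 of 36 cases.

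Among the members' called values, directions turned under no alternative but the GC content offsets, and the cause was not tested. With the GC content offset, the log2 fold change of day 2 over day 0 was 0.29 for Gpx8, -0.34 for Hmox1 and -0.10 for Keap1 in FHL2 cells, and -0.15 for Gstm1, 0.53 for Gpx8, 0.83 for Nfe2l2 and -0.0150 for Keap1 in control cells. With GC content and length, it was -0.0327 for Gstm1, -0.10 for Gpx7, -0.56 for Hmox1 and -0.0532 for Keap1 in FHL2 cells, and -0.38 for Gstm1, -0.61 for Gpx7, 0.16 for Gpx8, -0.40 for Hmox1 and 0.83 for Nfe2l2 in control cells. With the replicate block and GC content, it was 0.27 for Gpx8, -0.34 for Hmox1 and -0.10 for Keap1 in FHL2 cells, and -0.16 for Gstm1, 0.53 for Gpx8, 0.84 for Nfe2l2 and -0.0191 for Keap1 in control cells.

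Low levels limit Gstt2, Gstk1, Gpx3, Gstt1, Mgst2 and Txnrd2, all under 10 CPM. At similar depth in FHL2 cells at day 2, Txnrd2 had 4.23 CPM in replicate 1 (15341579 counts) and no count in replicate 2 (15560621 counts). The cause of such gaps was not tested. The spread differed between days (biological coefficient of variation 0.463 at day 2 and 0.121 at day 0), and a single estimate per gene was shared by both.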

Other observations

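Genes around NRF2 itself and in the wider redox network were described by further lists, for day 2 against day 0. Beside them, 25.8% of all genes tested rose and 30.2% fell in FHL2 cells, and 26.3% rose and 30.8% fell in control cells. With the GC content offset 21% rose and 18.3% fell in FHL2 cells, and 21.9% rose and 17.6% fell in control cells. Of 10 NRF2 partners and regulators, 2 rose and 4 fell with induction in each line, and with the GC content offset 2 rose and 5 fell in FHL2 cells and 2 rose and 4 fell in control cells. Bach1, a repressor that competes with NRF2 at antioxidant response elements, changed by -1.93 ± 0.28 on the log2 scale in FHL2 cells and -1.95 ± 0.28 in control cells (SE), and by -1.52 in FHL2 cells and -1.5 in control cells with the GC content offset. Cul3, the ubiquitin ligase scaffold that KEAP1 recruits, changed by -2.15 ± 0.18 in FHL2 cells and -2.12 ± 0.18 in control cells, and with the offset it passed in neither line, at -0.01 (adjusted p = 0.940) in FHL2 cells and 0.32 (0.0554) in control cells. Of 10 tested genes of NADPH supply outside the 2 members, 3 rose and 3 fell in FHL2 cells, near the shares of all genes. In control cells 4 rose and 3 fell. With the offset 4 rose and 1 fell in FHL2 cells, and 5 rose and 2 fell in control cells. Aldh1l2, the mitochondrial 10-formyltetrahydrofolate dehydrogenase, changed by -2.02 ± 0.16 in FHL2 cells and -2.45 ± 0.16 in control cells, and Pgls, the lactonase between G6pdx and Pgd, rose by 1.07 ± 0.16 in FHL2 cells and 1.45 ± 0.16 in control cells, or 0.40 and 0.69 with the offset.

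Of 17 glutaredoxin, thioredoxin-like, sestrin and methionine sulfoxide reductase genes, 7 rose and 4 fell in FHL2 cells, and 5 rose and 4 fell in control cells. With the GC content offset 10 rose and 2 fell in FHL2 cells, and 7 rose and 2 fell in control cells. Msrb3, a methionine sulfoxide reductase, changed by -2.61 ± 0.21 in FHL2 cells and -2.22 ± 0.21 in control cells, and Glrx5, a mitochondrial glutaredoxin of iron-sulfur cluster assembly, rose by 1.26 ± 0.16 in FHL2 cells and 1.13 ± 0.16 in control cells, or 0.71 and 0.57 with the offset. Of 9 genes of selenoprotein synthesis, which Gpx1, Gpx4 and Txnrd1 depend on, 1 rose and 4 fell in FHL2 cells, and 1 rose and 3 fell in control cells. Fewer falls passed with the offset, 1 in FHL2 cells and 2 in control cells, beside 1 rise in each line. Eefsec, the elongation factor for selenocysteine, rose by 1.08 ± 0.13 in FHL2 cells and 1.42 ± 0.13 in control cells, or 0.43 and 0.75 with the offset. Secisbp2l changed by -2.09 ± 0.16 in FHL2 cells and -2.06 ± 0.16 in control cells, or -1.27 and -1.18 with the offset, and Sepsecs by -1.76 ± 0.31 in FHL2 cells and -1.40 ± 0.31 in control cells, the Sepsecs call ending with the GC content offset (adjusted p = 0.160 in FHL2 cells and 0.871 in control cells). Of 14 further glutathione transferases and peroxidases only 4 had enough counts to be tested, and Gstcd changed by -1.18 ± 0.27 in FHL2 cells and -1.60 ± 0.28 in control cells, or -0.68 and -1.06 with the offset.

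Gstp1 was the only one of the 39 tested members whose libraries of the lines stood apart at both days in opposite order: all 3 FHL2 libraries were above the control libraries at day 2 and all 3 were below them at day 0, and its interaction did not pass (adjusted p = 0.719).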
